A study of Arabidopsis thaliana with 24 samples.

Results

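The genes described here had higher levels in shade than in white light in naive wild-type seedlings, and lower levels in shade than in white light in seedlings that had met shade before. Members were chosen by their measured WT levels. A nuclear gene was a member when, in WT, its mean log2(TPM + 1) of 2 libraries was at least 0.6 higher in naive shade than in naive white light and at least 0.6 lower in primed shade than in primed white light, with a mean of at least 5 TPM in naive shade and in primed white light. Of 33026 genes in the table, 199 met the rule, and 436 met the same thresholds with both signs turned. The WT values of the members were therefore chosen and are given as a description without a test, while the pif7-1 and ref6-1 libraries took no part in the choice.

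RNA was sequenced from whole Arabidopsis thaliana seedlings of the lines pif7-1, ref6-1 and Col-0 (WT). Seedlings aged 4 days spent 8 h in priming shade (primed) or in white light (naive), recovered for 40 h in white light, and then met shade for 1 h, with red light at about 0.5 of the far-red level, or stayed in white light. For each of the lines pif7-1, ref6-1 and WT there were 2 libraries of each of primed shade, primed white light, naive shade and naive white light, 24 libraries in 12 groups. The values are TPM, read counts scaled for gene length and library size. The labels do not state if the 2 libraries of a group were separate cultures, and p-values then measure only the spread among libraries, which may be technical.

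Shade from neighbouring plants lowers the ratio of red to far-red light. Phytochrome B then loses activity and transcription factors of the PIF family, PIF7 foremost, switch on growth genes within minutes. REF6 is a demethylase that removes a methyl mark of silenced genes from histone H3. Priming experiments ask whether an earlier treatment alters the response to a later one.

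PIF7 stayed at or below 3.03 TPM in the 8 pif7-1 libraries, against 28.4 to 76.6 TPM in WT. REF6 overlapped between the genotypes and so does not check the ref6-1 label, and ATXR7, a histone methyltransferase gene, was at or below 0.02 TPM in the 4 naive libraries labelled ref6-1 and at 7.20 to 8.60 TPM in the 4 primed ones. The naive mutant libraries were deposited in a later block than the rest, so primed and naive levels of a mutant are set apart by the block as well as by history, whereas each shade response lies within a block. With the ATXR7 values, it is unsettled if the naive and primed libraries labelled ref6-1 are of 1 line. Every ref6-1 result that joins both histories may therefore compare different lines. Results from the naive libraries labelled ref6-1 alone, given below under that label, may likewise not describe ref6-1. Mitochondrial genes summed to 407 and 158 TPM in naive shaded ref6-1 and to 559 and 321 TPM in naive shaded WT, against 58.9 to 186 TPM in the other 20 libraries, so that the 158 lies within their range. Depth cannot be read from TPM.

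By RefSeq biotype 127 were protein coding, 41 long non-coding RNAs, 11 small nucleolar RNAs (snoRNAs), 9 other non-coding RNAs, 4 small nuclear RNAs (snRNAs), 3 ribosomal RNAs, 2 antisense RNAs and 2 microRNA precursors. Protein-coding genes made up 63.8% of the members and 93.6% of the 21181 tested nuclear genes. The snoRNA and snRNA genes, whose products guide the modification of ribosomal RNA or splice messenger RNA, made up 7.54% of the members (15 genes) and 0.406% of the tested genes (86 genes). All 3 nuclear ribosomal RNA genes that passed the filter were members. A further 32 members encoded proteins annotated as uncharacterised.

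Members were also short. The median exonic length was 914 nt for members and 1650 nt for tested nuclear genes, and among protein-coding genes alone it was 1078 nt and 1704 nt. Exons of 28.1% of the members summed to under 500 nt, against 5.78% of the tested genes, and 38.7% had a single exon, against 18.17%. Another annotated gene overlapped 44.2% of the members and 35.1% of the tested genes. No test was run on these shares. The strandedness of the libraries was not given in the sources used here, so reads of overlapping genes on opposite strands cannot be told apart.

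**Figure D1:**
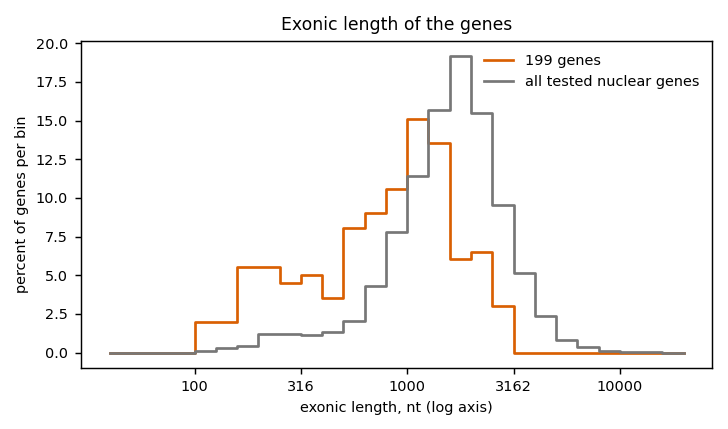
Percent of genes (vertical axis) in each bin of exonic length (horizontal axis, log scale, nt) for the 199 members and for all tested nuclear genes. The member curve has more genes below 500 nt, 28.1% against 5.78%, and its median is 914 nt against 1650 nt.

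In WT the members' median response was -0.91 in primed shade (-5.97 to -0.60) and 1.04 in naive shade (0.60 to 5.68) on the log2 scale, while the medians of all tested genes were 0.02 and -0.10. All shaded libraries lay beyond all white-light libraries in the chosen direction for 183 of 199 members in the primed plants and for 186 in the naive plants, and for 173 in both. By limma, 8.94% of all tested genes fell in primed and 12.5% rose in naive WT shade, and nothing is read from this, since the rule used these contrasts. At its edge, the F-box gene AT1G61340 was just inside with -0.60 in primed and 0.73 in naive shade, as was the shugoshin gene AT3G44960, which belongs to a family that protects chromosome cohesion, with -0.81 and 0.60. The vesicle-associated protein gene AT1G51270 (-1.57 and 0.597) and CAF1-9, a deadenylase gene (-0.60 and 0.596), were just outside.

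In all, 34 members were listed at 0 in at least 1 library, among them the RNAs with the largest WT differences. On chromosome 4, 4 of 5 neighbouring snoRNA genes within 1 kb were members, and they are close copies that share 88.5% to 91.7% of their bases. They are printed from the RefSeq genome, build TAIR10.1, 5′ to 3′ on the plus strand. Capitals mark the letters TGATGA and CTGA, the sequences of the C and D boxes that define one class of snoRNA, wherever they occur on that strand.
AT4G39361, chr4:18304891-18305010: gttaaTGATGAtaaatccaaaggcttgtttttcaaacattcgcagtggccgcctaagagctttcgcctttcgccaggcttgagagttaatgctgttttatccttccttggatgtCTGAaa
AT4G39363, chr4:18305256-18305375: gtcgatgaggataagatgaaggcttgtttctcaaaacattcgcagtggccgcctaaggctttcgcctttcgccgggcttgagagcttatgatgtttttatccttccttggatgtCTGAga
AT4G39364, chr4:18305415-18305536: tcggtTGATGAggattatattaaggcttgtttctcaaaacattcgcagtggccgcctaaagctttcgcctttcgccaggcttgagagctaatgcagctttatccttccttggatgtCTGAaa
AT4G39366, chr4:18305585-18305704: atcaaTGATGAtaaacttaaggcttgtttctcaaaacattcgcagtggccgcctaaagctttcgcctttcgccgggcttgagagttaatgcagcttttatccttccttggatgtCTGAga
All 4 carry CTGA near the 3′ end, and TGATGA near the 5′ end was found in all but AT4G39363. Reads of such copies cannot be divided with certainty.

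AT4G39366 was listed at 0 in all 8 pif7-1 libraries. In ref6-1 it was listed at 0 and 88.2 TPM in primed shade against 0 and 0 in primed white light, and at 454 and 0 TPM in naive shade against 0 and 0 in naive white light. In WT the values were 0 and 0 TPM in primed shade against 0 and 244 in primed white light, and 483 and 577 TPM in naive shade against 105 and 0 in naive white light. Where a group held any signal it came from 1 library, except in naive shaded WT. AT4G39364 was detected in every library, with 15.6 to 114 TPM in primed shaded ref6-1, 443 and 27.5 TPM in naive shaded ref6-1, and 639 and 238 TPM in naive shaded WT. In pif7-1 it had 21.4 and 25.2 TPM in primed shade against 17.5 and 21.1 in white light, and 27.7 and 29.2 TPM in naive shade against 19.1 and 17.3 in white light, so that shade lay above white light in both histories.

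Neither mutant gave a snoRNA or snRNA member that was lower in primed shade by the test (2.58% of all tested genes were in ref6-1 and 3.42% in pif7-1). In naive shade 3 of 15 rose in ref6-1 (8.96% of all tested genes) and none in pif7-1 (1.89%). By the direct test between the mutants none of the 15 had a different naive response. U3D (AT5G54075), a copy of the U3 snoRNA that takes part in the first cuts of the ribosomal RNA precursor, stood at 51.6 and 36.4 TPM in naive shaded ref6-1 against 4.22 and 9.69 TPM in naive white light, a log2 change of 2.57 (SE 0.63, limma adjusted p = 0.0122). In naive pif7-1 its values overlapped, 38.1 and 16.1 TPM in shade against 7.79 and 22.5 TPM in white light. The difference in its naive response between pif7-1 and ref6-1 did not pass (-1.72, SE 0.89, limma adjusted p = 0.286). In WT it had 5.04 and 7.90 TPM in primed shade against 27.7 and 26.8 in primed white light, and 107 and 94.7 TPM in naive shade against 19.1 and 23.5 in naive white light. U3D overlaps a gene on the opposite strand. It was named after its values were seen, as were the seed genes below that the naming rule did not pick, the ribosomal RNA genes, AT2G08665, SPL13A, VTI12 and AT1G25277. Of the 71 other tested snoRNA and snRNA genes, 6 rose and 2 fell in naive ref6-1 (8.96% and 8.43% of all tested genes). In naive pif7-1 none of the 71 rose and 2 fell (1.89% and 5.49%).

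The ribosomal RNA members varied between replicates. The 18S gene AT3G41768 stood at 1481 and 1916 TPM in primed shaded WT against 7833 and 1824 in primed white light, and at 9167 and 2078 TPM in naive shaded WT against 2091 and 1781 in naive white light. One library of each pair set the WT difference, and none of the 3 ribosomal RNA genes passed in any mutant comparison. AT3G41979, annotated as 5.8S, and AT2G01020 had equal values in all 24 libraries. Chloroplast genes summed to 1887 and 2085 TPM in primed shaded WT against 9918 and 2729 in primed white light, and to 15264 and 7259 TPM in naive shaded WT against 3199 and 2604 in naive white light. The first library of each pair with a high 18S level was thus also high in chloroplast RNA, and the part of this in the result was not tested.

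Of the non-coding members, 42 lie opposite a gene of the table, with 44 protein-coding partners. The partners had WT medians of -0.10 in primed and -0.12 in naive shade, and 1 of the 44 met the rule itself. AT3G01205 and its partner AT3G02910 were a mirrored pair. AT3G01205 had 46.1 and 27.7 TPM in primed shaded pif7-1 against 4.41 and 1.81 in white light, 1.49 and 0.41 TPM in primed shaded ref6-1 against 17.0 and 19.4 in white light, and 1.65 and 0 TPM in primed shaded WT against 41.6 and 45.5 in white light. AT3G02910 had 0 and 4.15 TPM in primed shaded pif7-1 against 35.5 and 39.5 in white light, 29.4 and 27.8 TPM in primed shaded ref6-1 against 13.59 and 10.99 in white light, and 31.6 and 35.7 TPM in primed shaded WT against 2.82 and 0 in white light. Within each genotype the light with the higher AT3G01205 level had the lower AT3G02910 level, and no libraries of shade and white light overlapped for either gene. AT3G01205 rose in primed pif7-1 shade by 3.24 (SE 0.44, limma adjusted p = 0.000579) and fell in primed ref6-1 shade by 3.35 (SE 0.44, limma adjusted p = 0.000157). In naive shade AT3G01205 rose by 3.87 in ref6-1 (SE 0.44, limma adjusted p = 3.47e-05), and its 1.48 in pif7-1 missed the threshold (limma adjusted p = 0.0506).

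A second overlapping pair holds the highest values of all members. AT2G08665 lies opposite LHB1B2, a gene of the light-harvesting antenna of photosystem II also called LHCB1.5. The RNA AT2G08665 stood at 27123 and 25782 TPM in primed shaded pif7-1 against 21358 and 16405 in white light, at 1186 and 6983 TPM in primed shaded ref6-1 against 28234 and 35575 in white light, and at 5098 and 6381 TPM in primed shaded WT against 19636 and 21349 in white light. LHB1B2 was listed at 0 in both primed shaded pif7-1 libraries against 0 and 6935 TPM in white light, at 18738 and 12105 TPM in primed shaded ref6-1 against 0 and 0 in white light, and at 16752 and 14930 TPM in primed shaded WT against 0 and 0 in white light. In naive shade LHB1B2 was listed at 0 in both libraries of pif7-1 and of ref6-1, against 0 and 0 TPM in pif7-1 white light and 23879 and 12069 TPM in ref6-1 white light. In naive WT LHB1B2 stood at 14306 and 4383 TPM in shade against 5126 and 565 in white light, with overlap, and AT2G08665 at 14234 and 21945 TPM in shade against 5987 and 9652 in white light, so that these were not mirrored there. How reads were divided between these overlapping genes was not given in the sources used here, so neither level can be taken as that gene's own.

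The pif7-1 counts are given with the shares of members and of all tested genes. In primed shade 9 members rose (4.52%, against 1.59% of all tested genes) and 1 fell (0.503%, against 3.42%). The median was 0.03 against -0.12 over all tested genes. In naive shade 11 rose (5.53%, against 1.89%) and 2 fell (1.01%, against 5.49%), with a median of 0.14 against -0.08. Shaded libraries lay entirely below white-light libraries in primed pif7-1 for 32 of 199 members (35.9% of all tested genes did) and entirely above them in naive pif7-1 for 61 (18.5%). No member passed the test of a lower primed than naive response by limma (1.48% of all genes were higher and 0.801% lower). At an unadjusted p under 0.05, 14 members were higher and 14 lower, and the share over all tested genes was not counted. No member both rose in naive and fell in primed shade, as 0.0466% of all tested genes did.

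The naive pif7-1 count was not stable when 1 library was left out, which also leaves fewer samples. Without replicate 1 of naive white light none of the members rose, without replicate 1 of naive shade 5 did, and without replicate 2 of naive shade 1 did. Without replicate 2 of primed shade 12 members fell in primed pif7-1 and 7 had a lower primed than naive response, and without replicate 1 of primed white light 2 fell. With the compared libraries alone in the fit no member rose in naive shade.

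**Figure D2:**
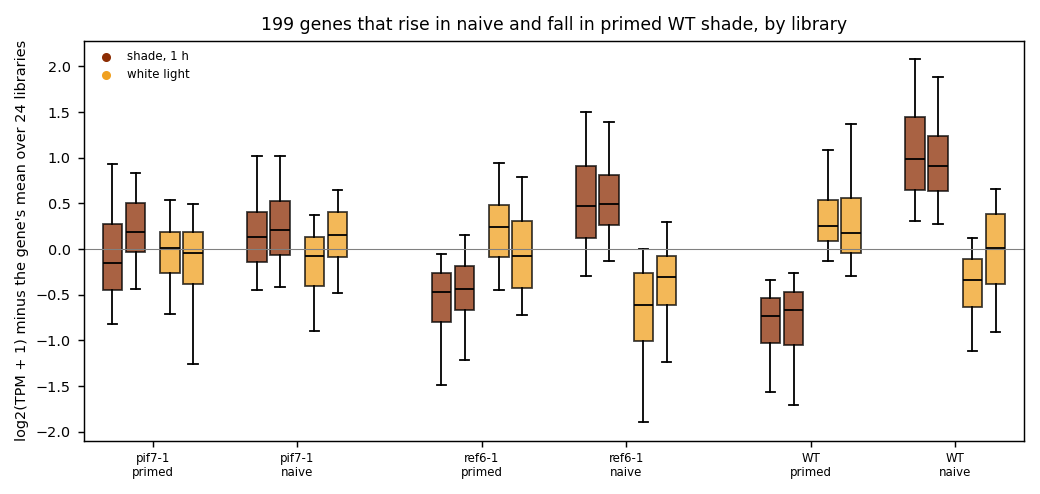
Level of the 199 members in each library, as log2(TPM + 1) minus the gene's mean over 24 libraries (boxes are the middle 50% of genes, lines the medians, whiskers the 10th and 90th percentiles), with pif7-1, ref6-1 and WT from left to right and shade left of white light. Boxes of shade and white light overlap in pif7-1. In ref6-1 and WT the shaded boxes are low in primed and high in naive plants, as the rule fixed for WT. In primed ref6-1 boxes overlap as well, with white light replicate 2 at -0.42 to 0.31 and shade at -0.80 to -0.26 and -0.67 to -0.19.

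Some members rose in pif7-1 shade in both histories. GASA6 (AT1G74670), a gibberellin-regulated peptide gene, stood at 571 and 617 TPM in primed shaded pif7-1 against 265 and 255 in white light, a log2 change of 1.19 (SE 0.15, limma adjusted p = 0.000247). In naive shaded pif7-1 it had 542 and 532 TPM against 292 and 318 in white light, a change of 0.82 (SE 0.15, limma adjusted p = 0.00375). No shaded library overlapped a white-light library in either history. GASA6 was also the sole member that rose in primed ref6-1 shade, with 471 and 435 TPM against 334 and 252 TPM in white light (0.64, SE 0.15, limma adjusted p = 0.00949). In WT it had 205 and 161 TPM in primed shade against 351 and 258 in white light, and 548 and 607 TPM in naive shade against 270 and 305 in white light. In primed plants shade thus lay above white light in both mutants and below it in WT. GASA6 overlaps a gene on the opposite strand.

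The non-coding RNA AT1G07737 and the uncharacterised gene AT5G42825 also rose in primed pif7-1 shade. AT1G07737 had 937 and 941 TPM in primed shaded pif7-1 against 371 and 296 in white light (limma adjusted p = 0.0447), and 204 and 240 TPM in primed shaded ref6-1 against 1009 and 972 in white light (-2.16, SE 0.40, limma adjusted p = 0.00285). In naive shade it rose in pif7-1 by 1.77 and in ref6-1 by 2.21 (limma adjusted p = 0.0153 and 0.00219). Its naive responses did not differ between the mutants by the test (-0.44, limma adjusted p = 0.704). AT5G42825 had 41.3 and 43.7 TPM in primed shaded pif7-1 against 16.3 and 9.67 in white light (1.68, SE 0.39, limma adjusted p = 0.0241). Both overlap another annotated gene. The members that fell in pif7-1 were the uncharacterised gene AT1G25277 in both histories (-1.06 in primed shade, limma adjusted p = 0.000537, and -0.50 in naive shade, limma adjusted p = 0.0433) and VTI12, a vesicle fusion protein gene, in naive shade (-0.35, limma adjusted p = 0.0431).

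In the libraries labelled ref6-1 most members had the signs that the rule set in WT. In primed shade 37 of 199 fell (2.58% of all tested genes did) and 1 rose (10.2%), with a median of -0.56 against 0.08 over all tested genes. In naive shade 107 rose (8.96% of all tested genes) and none fell (8.43%), with a median of 0.95 against 0.00. At an unadjusted p under 0.05 none fell and 140 rose in naive shade, and the share over all tested genes at that p was not counted. Shaded libraries lay entirely below white-light libraries in primed ref6-1 for 135 members (20.1% of all tested genes) and entirely above them in naive ref6-1 for 166 (30.0%). The response was lower in primed than in naive plants for 131 members (8.43%) and higher for none (14.4%). At an unadjusted p under 0.05 it was lower for 151 and higher for none, again without a share over all tested genes. By the test 29 members both rose in naive and fell in primed shade, as 0.550% of all tested genes did, and 169 had both signs, against 50 in pif7-1. These joint ref6-1 counts combine naive libraries without ATXR7 transcript and primed libraries with it, which may not be of 1 line. The share of all tested genes with both signs was not counted. Over all tested genes, 38.7% had a negative response in primed and 48.7% in naive ref6-1 shade, and 66.7% and 61.3% in pif7-1.

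Members of each larger class passed in ref6-1. Of all tested genes, 2.58% fell in primed and 8.96% rose in naive ref6-1 shade, and 3.42% and 1.89% did in pif7-1. Of 85 protein-coding members outside the seed and uncharacterised classes, 17 fell in primed and 51 rose in naive ref6-1 shade, against 0 that fell in primed and 4 that rose in naive pif7-1 shade. Of 52 long or other non-coding RNAs, 9 fell in primed and 22 rose in naive ref6-1 shade, with medians of -0.65 and 1.06. In pif7-1 shade 4 of them rose in primed and 5 in naive plants. Of the 1169 other tested genes of this class, 37 fell and 23 rose in primed ref6-1 shade. In naive ref6-1 shade 114 of these others rose and 36 fell. Of 32 uncharacterised protein genes, 4 fell in primed and 22 rose in naive ref6-1 shade, and in pif7-1 2 rose and 1 fell in each history. Neither microRNA precursor passed in either mutant.

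The number that fell in primed ref6-1 was lower whichever compared library was left out, with fewer samples in each such fit. It was 9 without replicate 1 and 15 without replicate 2 of primed shade, and 12 without replicate 1 and 23 without replicate 2 of primed white light. The number that rose in naive ref6-1 was 36 without replicate 1 of naive white light and 68 without replicate 2 of naive shade. With the compared libraries alone in the fit, 19 fell in primed and 4 rose in naive shade, and 99 had a lower primed than naive response.

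**Figure D3:**
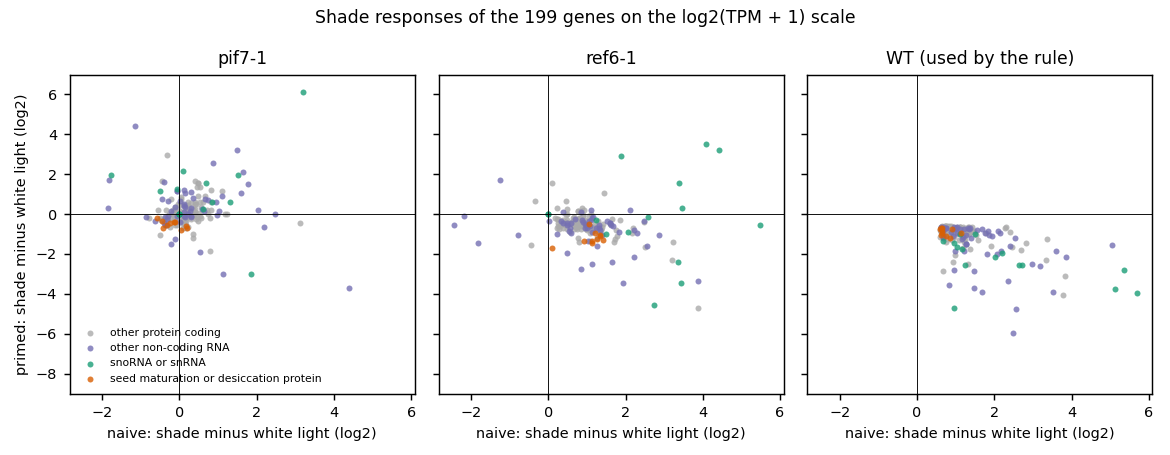
Response to shade of each of the 199 members in primed plants (vertical axis) and naive plants (horizontal axis), as shade minus white light on the log2(TPM + 1) scale, for pif7-1, ref6-1 and WT. The lower right quadrant, higher in naive and lower in primed shade, holds 50 members in pif7-1, 169 in ref6-1 and, by the rule, all 199 in WT. The share of all tested genes in this quadrant was not counted.

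Several members are known from dry seeds. By product name 10 members encode seed maturation or desiccation proteins, 5.03% of the members against 0.463% of the tested nuclear genes. The class was drawn up after the annotation of the members was seen, so its share has no test. EM6 and M17 encode late embryogenesis abundant (LEA) proteins, which protect cells as seeds dry, as do AT3G02480 and LEA46. OLEO2 and AT3G01570 encode oleosins, which coat oil bodies. PER1 encodes a seed peroxiredoxin, HVA22B a protein whose barley relative is induced by abscisic acid, and AT2G21820 and AT1G47980 a seed maturation and a desiccation-like protein.

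In ref6-1, 7 of these 10 fell in primed shade (median -1.27, 2.58% of all tested genes fell). In naive shade 9 rose (median 1.17, 8.96% of all tested genes rose), and 9 had a lower primed than naive response (8.43%). In pif7-1 none passed in either history (medians -0.51 and -0.20). EM6 (AT2G40170) stood at 23.9 and 31.8 TPM in primed shaded ref6-1 against 77.9 and 62.9 in white light (-1.31, SE 0.28, limma adjusted p = 0.00632), and at 47.2 and 33.4 TPM in naive shaded ref6-1 against 10.9 and 18.5 in white light (1.42, SE 0.28, limma adjusted p = 0.00358). In pif7-1 it had 17.12 and 18.18 TPM in primed shade against 17.38 and 24.39 in white light, and 13.59 and 14.03 TPM in naive shade against a mean of 21.7 TPM in white light, where both libraries lay above both shaded ones (-0.59, limma adjusted p = 0.229), and the naive responses differed by -2.01 between pif7-1 and ref6-1 (SE 0.40, limma adjusted p = 0.0167). In WT EM6 had 8.84 and 11.04 TPM in primed shade against 20.7 and 14.8 in white light, and 23.2 and 22.7 TPM in naive shade against 8.95 and 15.4 in white light.

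M17 was the member of the class that passed in neither history in ref6-1, with changes of -1.72 in primed shade (limma adjusted p = 0.132) and 0.09 in naive shade (limma adjusted p = 0.957). HVA22B (-0.95, limma adjusted p = 0.0686) and AT1G47980 (-0.49, limma adjusted p = 0.212) missed the threshold in primed shade. AT3G02480 passed in both, with 150 and 185 TPM in primed shaded ref6-1 against 399 and 388 in white light (-1.23, SE 0.29, limma adjusted p = 0.0107), and 247 and 179 TPM in naive shade against 61.0 and 125 in white light (1.26, SE 0.29, limma adjusted p = 0.00888). PER1 had 16.8 and 16.3 TPM in primed shaded ref6-1 against 37.3 and 32.8 in white light (-1.04, limma adjusted p = 0.0442), and 68.7 and 29.4 TPM in naive shade against 14.5 and 20.4 in white light (1.34, limma adjusted p = 0.0108). OLEO2 had 9.44 and 8.41 TPM in primed shaded ref6-1 against 25.3 and 22.7 in white light (-1.33, limma adjusted p = 0.0104), and 36.8 and 15.8 TPM in naive shade against 7.68 and 14.4 in white light (1.12, limma adjusted p = 0.0223). Shade and white light did not overlap for these genes in ref6-1. In primed pif7-1 PER1 and OLEO2 were lower in shade in both libraries as well, with 21.3 and 24.2 TPM against 34.98 and 40.91 TPM for PER1 (-0.71, limma adjusted p = 0.195) and 12.41 and 13.04 TPM against 19.9 and 22.5 TPM for OLEO2 (-0.69, limma adjusted p = 0.197).

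Summed over the 10 genes, the level was 262 and 308 TPM in primed shaded ref6-1 against 688 and 685 TPM in white light, and 620 and 355 TPM in naive shaded ref6-1 against 154 and 254 TPM in white light. The sums in pif7-1 were 191 and 219 TPM in primed shade against 258 and 323 TPM in white light, and 183 and 212 TPM in naive shade against 242 and 205 TPM in white light. Primed pif7-1 shade was lower in both libraries, and naive pif7-1 overlapped. The 88 other tested genes of the same class went both ways in ref6-1, with 9 higher and 13 lower in primed shade and 14 higher and 14 lower in naive shade. Of 33 tested abscisic acid and cold response genes, none a member, 6 rose and 3 fell in primed ref6-1 and 3 rose and 5 fell in naive ref6-1. Seed storage markers outside the members were uneven between replicates in both mutants. They summed to 41.0 and 314 TPM in primed ref6-1 white light and to 104 and 4.55 TPM in primed ref6-1 shade. In pif7-1 they summed to 44.6 and 4.53 TPM in primed shade and to 91.6 and 3.5 TPM in naive white light. In primed white-light WT they reached at most 4.71 TPM, and their part in the result was not tested.

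**Figure D4:**
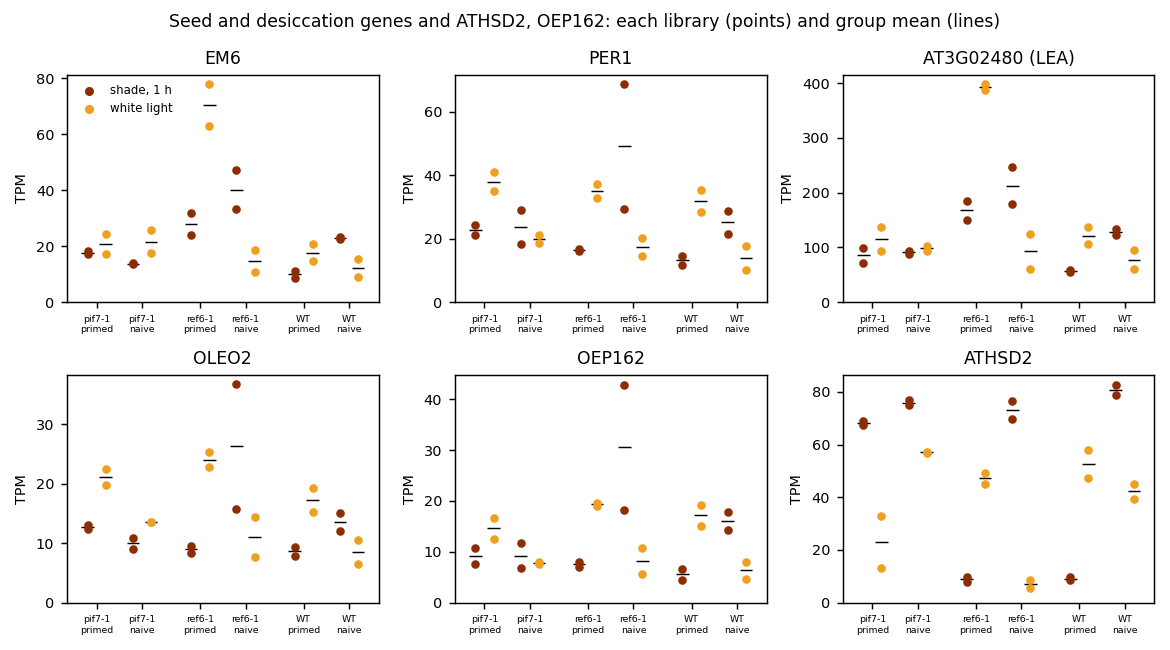
TPM of 6 members in each library (points) with group means (lines), for pif7-1, ref6-1 and WT from left to right, primed left of naive and shade left of white light. In ref6-1 shade and white light do not overlap for any of the 6 genes, low in primed and high in naive shade, whereas for EM6 in primed pif7-1 they do (17.12 and 18.18 TPM against 17.38 and 24.39 TPM).

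The promoters of these genes were searched for short sequences bound by light and abscisic acid factors. The 250 bases before the annotated gene start are shown for EM6, PER1, AT3G02480 and OEP162, which fell in primed and rose in naive ref6-1 shade. OEP162 (AT4G16160), a plastid outer envelope channel gene known for expression in seeds, stood outside the class named by product. Sequences are from the RefSeq genome, build TAIR10.1, 5′ to 3′ on the gene's strand, and capitals mark ACGTG on either strand, the core shared by the G-box CACGTG and the abscisic acid response element ACGTGG.
EM6, chr2:16780369-16780618, minus strand: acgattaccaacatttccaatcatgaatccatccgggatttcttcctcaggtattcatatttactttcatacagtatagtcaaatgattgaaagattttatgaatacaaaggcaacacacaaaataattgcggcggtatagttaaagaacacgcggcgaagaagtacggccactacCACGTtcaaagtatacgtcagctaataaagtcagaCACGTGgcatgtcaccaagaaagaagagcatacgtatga
PER1, chr1:17780179-17780428, plus strand: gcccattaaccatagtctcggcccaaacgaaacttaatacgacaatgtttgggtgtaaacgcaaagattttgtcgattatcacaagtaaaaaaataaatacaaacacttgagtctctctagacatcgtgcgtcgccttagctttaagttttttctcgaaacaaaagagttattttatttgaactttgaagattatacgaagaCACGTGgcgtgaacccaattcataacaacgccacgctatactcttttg
AT3G02480, chr3:511970-512219, plus strand: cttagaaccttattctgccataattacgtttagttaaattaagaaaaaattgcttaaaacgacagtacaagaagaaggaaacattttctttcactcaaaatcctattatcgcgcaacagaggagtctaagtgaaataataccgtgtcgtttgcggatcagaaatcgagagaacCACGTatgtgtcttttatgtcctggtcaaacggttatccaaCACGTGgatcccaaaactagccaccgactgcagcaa
OEP162, chr4:9157221-9157470, plus strand: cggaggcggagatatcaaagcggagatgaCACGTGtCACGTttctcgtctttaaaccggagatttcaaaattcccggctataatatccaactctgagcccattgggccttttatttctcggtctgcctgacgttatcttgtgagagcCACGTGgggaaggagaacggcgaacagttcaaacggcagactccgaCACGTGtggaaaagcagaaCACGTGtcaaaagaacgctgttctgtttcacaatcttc
All 4 windows hold CACGTG, but these genes were picked for display, so nothing is read from that. The core ACGTG was chosen after the values were seen.

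Among the 10 seed class genes, ACGTGG on either strand was found in 7 windows and CACGTG, which overlaps it where a G follows, in 6. Over the 127 protein-coding members ACGTGG was in 21 windows (16.5%), and over 19815 tested nuclear protein-coding genes in 9.17%. CACGTG was in 17 member windows (13.4%) against 7.56% of all windows, and the PIF-binding box CACATG in 17 (13.4%) against 11.2%. Of the 24 protein-coding members that passed in both histories in ref6-1, 8 held ACGTGG (33.3%) and 6 held CACGTG. The letters CTCTGTTT, reported for REF6 binding, were in 4 member windows (3.15%) against 3.07% of all windows. The core ACGTG was in 38 member windows (29.9%) against 23.9% of all windows. All letters were searched on both strands, and a match of letters shows no binding.

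Genes outside the seed class also passed in both histories in ref6-1. ATHSD2 (AT3G47350) encodes a hydroxysteroid dehydrogenase of the family that includes oil-body steroleosins. It stood at 7.99 and 9.57 TPM in primed shaded ref6-1 against 49.2 and 45.1 in white light (-2.30, SE 0.27, limma adjusted p = 6.82e-05), and at 76.4 and 69.8 TPM in naive shaded ref6-1 against 5.61 and 8.74 in white light (3.21, SE 0.27, limma adjusted p = 1.88e-06). In pif7-1 it had 69.0 and 67.3 TPM in primed shade against 33.0 and 13.1 in white light (1.66, SE 0.27, limma adjusted p = 0.00292), and 74.9 and 77.0 TPM in naive shade against 57.3 and 56.9 in white light (0.41, limma adjusted p = 0.416). In WT it had 8.41 and 9.77 TPM in primed shade against 47.2 and 58.0 in white light, and 78.9 and 82.6 TPM in naive shade against 39.4 and 45.2 in white light. In primed shade its levels were low in ref6-1 and WT and high in pif7-1, without overlap, and the primed responses of pif7-1 and ref6-1 differed by 3.96 (SE 0.38, limma adjusted p = 0.000113).

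Further members passed in both histories in ref6-1. OEP162 had 8.02 and 7.07 TPM in primed shade against 19.1 and 19.6 in white light (-1.25, limma adjusted p = 0.0316), and 42.9 and 18.3 TPM in naive shade against 5.61 and 10.8 in white light (1.72, limma adjusted p = 0.00506). AT1G17990, an FMN-linked oxidoreductase gene, had 1.84 and 4.76 TPM in primed shade against 11.8 and 11.7 in white light (-1.66, limma adjusted p = 0.0376), and 22.7 and 40.5 TPM in naive shade against 4.24 and 4.80 in white light (2.51, limma adjusted p = 0.00358). AT1G23050, a hydroxyproline-rich glycoprotein gene, had 0 and 0.53 TPM in primed shade against 31.2 and 32.0 in white light, and 47.6 and 54.9 TPM in naive shade against 0 and 11.6 in white light. Shaded and white-light libraries did not overlap for these genes in ref6-1. AT1G23050 overlaps a gene on the opposite strand. In pif7-1 it had 25.8 and 41.0 TPM in primed shade against 17.77 and 0 in white light, and 19.0 and 22.1 TPM in naive shade against 28.3 and 23.3 in white light. The non-coding RNA AT2G23672, opposite the photosystem assembly gene YCF37, fell by 1.58 in primed and rose by 2.55 in naive ref6-1 shade, and rose in pif7-1 by 0.89 in primed and 1.11 in naive shade (limma adjusted p = 0.000521, 4.43e-06, 0.0403 and 0.00946 in that order).

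SPL13A, a gene of the squamosa promoter-binding family that times the change from juvenile to adult growth, had 8.47 and 7.70 TPM in primed shaded ref6-1 against 9.99 and 12.3 in white light (-0.42, limma adjusted p = 0.221), and 27.9 and 26.7 TPM in naive shade against 3.88 and 4.22 in white light (2.49, SE 0.21, limma adjusted p = 1.91e-06). In naive pif7-1 it had 13.3 and 9.67 TPM in shade against 10.7 and 11.2 in white light, which overlap. SPL13A has a near-identical copy, so reads may be shared between them. AGL31, also called MAF2, encodes a MADS-box repressor of flowering. It had 51.9 and 54.0 TPM in primed shaded ref6-1 against 94.9 and 67.4 in white light (-0.59, limma adjusted p = 0.133), and 116 and 118 TPM in naive shade against 59.4 and 66.9 in white light (0.88, limma adjusted p = 0.0227). In pif7-1 its levels overlapped between shade and white light in naive plants, with 88.5 and 92.0 TPM in shade against 88.0 and 95.1 TPM.

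Members were rare among the listed genes, as they were among all nuclear genes of the table (199 of 32548). Over 26 functional lists, 4 members were found, YDK1 among auxin response genes, AGL31 among chromatin genes, and EM6 and OLEO2 among seed markers. None of the 24 early shade genes was a member. With members this rare, a list of 24 genes may hold none, so nothing is read from that. Of the 23 early shade genes tested, 16 rose in primed and 20 in naive ref6-1 shade (10.2% and 8.96% of all tested genes). In pif7-1 shade 15 of them rose in primed and 9 in naive plants (1.59% and 1.89% of all tested genes). YDK1 (AT4G37390), also known as GH3.2, encodes an enzyme that joins auxin to amino acids. It had 22.04 and 3.70 TPM in primed shaded pif7-1 against 9.93 and 3.19 in white light, 10.7 and 14.2 TPM in primed shaded ref6-1 against 4.24 and 2.99 in white light, and 5.91 and 6.07 TPM in primed shaded WT against 12.6 and 20.9 in white light. Primed ref6-1 was higher in shade in both libraries, opposite to WT, but the change of 1.55 did not pass (limma adjusted p = 0.115).

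The difference between the mutants was tested directly. Its naive side uses the libraries labelled ref6-1 that lack ATXR7 transcript and may not be ref6-1. In primed shade the response in pif7-1 was higher than in ref6-1 for 27 members (1.05% of all tested genes) and lower for 1, AT1G25277 (9.27%), with a median difference of 0.57 against -0.20 over all tested genes. In naive shade it was higher for none (0.536%) and lower for 15 (1.92%), with a median difference of -0.80 against -0.10. At an unadjusted p under 0.05 none was higher and 89 were lower in naive shade, and the share over all tested genes at that p was not counted. The 15 included ATHSD2 (-2.80, limma adjusted p = 0.00192), SPL13A (-2.44, limma adjusted p = 0.000786) and EM6. The primed count was 14 without replicate 1 and 15 without replicate 2 of primed shaded ref6-1, and 17 without replicate 1 and 15 without replicate 2 of primed white-light pif7-1, and the naive count was 3 without replicate 1 of naive shaded pif7-1, 4 without replicate 2 of naive white-light pif7-1 and 6 without replicate 1 of naive white-light ref6-1.

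In both ref6-1 and WT, root markers had values of the opposite order to the members. The summed TPM of the root marker list, none of them a member, was 74.96 and 82.85 in primed shaded ref6-1 against 49.3 and 41.9 in white light, and 63.1 and 43.6 in naive shaded ref6-1 against 124 and 152 in white light. In WT it was 88.5 and 110 in primed shade against 65.3 and 65.8 in white light, and 46.0 and 42.2 in naive shade against 114 and 113 in white light. In pif7-1 it was 63.0 and 38.7 in primed shade against 70.6 and 84.2 in white light, and 46.2 and 39.5 in naive shade against 80.0 and 60.5 in white light. Root markers were thus high where the members were low in ref6-1 and WT. In pif7-1 they were lower in shade in both histories, in both libraries. Of 14 tested root markers 6 rose in primed and 13 fell in naive ref6-1 shade, and 1 fell in each history in pif7-1. In whole seedlings, fewer cells of a type and less RNA per cell cannot be told apart.

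With root marker TPM as a covariate, an alternative added after the data were seen, 12 members fell in primed and 5 rose in naive ref6-1 shade, and none had a lower primed than naive response. The medians kept their signs, at -0.33 in primed and 0.64 in naive ref6-1 shade. With mitochondrial TPM as a covariate 21 members rose in naive ref6-1 and 36 had a lower primed than naive response, with medians of 0.79 and -1.31. These covariates differ between the same groups as the contrasts, so their part and that of the light cannot be told apart. Of the 111 members that overlap no other gene, 22 fell in primed (19.8%, against 18.6% of all 199) and 65 rose in naive ref6-1 shade (58.6%, against 53.8%), with medians of -0.54 and 0.87.

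**Figure D5:**
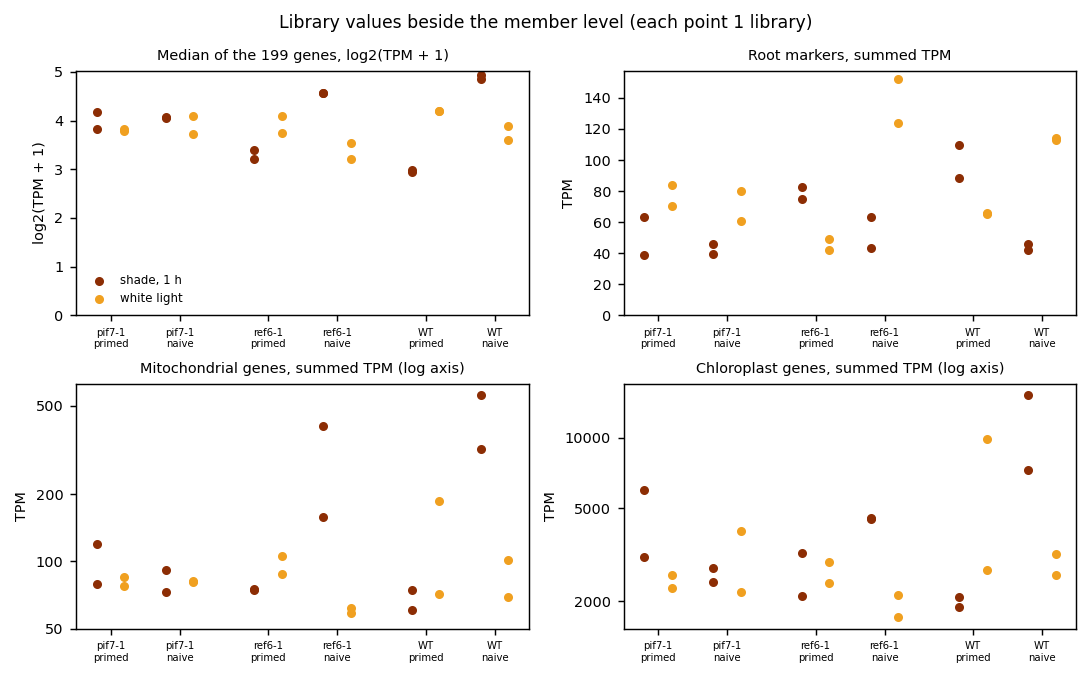
Median log2(TPM + 1) of the 199 members and summed TPM of root markers, of mitochondrial genes and of chloroplast genes (last 2 panels on log axes) in each library, for pif7-1, ref6-1 and WT from left to right, primed left of naive and shade left of white light. In ref6-1 and WT root markers sit low where the members sit high, as in naive shaded WT (46.0 and 42.2 TPM), the group that also holds the highest mitochondrial sum (559 TPM).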

How the data were processed

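RNA was measured in 24 libraries of whole seedlings, 2 for each of 12 groups read from the sample titles. The authors deposited 1 table of TPM for 33026 genes. Per the submitters' processing notes, the tools were STAR, HTSeq, DESeq2, cutadapt and FastQC and the build was TAIR10. No versions or roles are given. The TPM calculation, its gene lengths and the strandedness are not given in the sources used here. Depth, and so the counting precision, is unknown.

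Values were analysed as log2(TPM + 1), which understates changes of low genes, with limma 3.58.1 (R 4.3.3, and Python 3.11.15 for descriptions). The 21473 genes that reached 1 TPM in 2 libraries or more were tested. The model had 12 group means, with 12 residual and 3.69 prior degrees of freedom and a mean-variance trend. Benjamini-Hochberg adjustment covered all tested genes of a comparison, with a threshold of 0.05. Counts at an unadjusted p are given for members only, without a share over all tested genes. The 199 members all passed the filter, which the rule forces. The procedure was also run on simulated data. There the noise was drawn separately for each gene and library, without shifts shared by a whole library, so nothing is read from it here. Members, lists and tests were chosen with earlier results of these data known, and classes and snoRNA sequences after the values were seen. Named genes were those with the largest WT changes, those that passed in both histories or against the WT direction in a mutant, list members and genes at the edge of the rule.

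Biotypes, lengths, names and sequences came from RefSeq, build TAIR10.1, with 199 of 199 members matched. Its coordinates are used with its own genome only. Alternatives were pseudocounts of 0.1 and 5, other filters, quantile normalization, a replicate block, smaller fits and leaving out each library. Covariates, biotype subsets, rescaled TPM and non-overlapping members were added after the data were seen.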

Additional observations from a re-analysis of the deposited data

Results flagged for a closer look

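Responses differed between histories or between the mutants by a direct test for 3 counts. In ref6-1, 131 of 199 members had a different response in primed than in naive plants by limma, all of them lower in primed plants. The naive libraries labelled ref6-1 lack ATXR7 transcript and the primed ones have it, so this contrast may compare different lines. Between pif7-1 and ref6-1 the primed response differed for 28 members and the naive response for 15. The naive count uses the libraries labelled ref6-1 that lack ATXR7 transcript. No group had enough libraries to look for a library far from the others.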

How the results depend on the processing

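The rule gave 107 genes with a pseudocount of 5, 319 with no minimum mean and 85 with a minimum of 20 TPM, while leaving out 1 WT library gave 144 to 291. For members higher in naive pif7-1 shade (11), counts were 7 with a pseudocount of 0.1 and with the 16 mutant libraries alone, 17 under quantile normalization, 0 with the compared groups alone, 6 among protein-coding genes, 1 with the root covariate and 3 without overlapping members, and 0 to 10 when 1 library was left out. For members lower in primed pif7-1 shade (1), they were 0 with the compared groups alone, 2 with either covariate, and 1 to 12 with 1 library left out. For members with a lower primed than naive response in pif7-1 (0), the count was 1 under quantile normalization and 0 to 7 with 1 library left out. For naive ref6-1 (107), counts were 4 with the compared groups alone, 21 with the mitochondrial and 5 with the root covariate, 65 without overlapping members, and 36 to 80 with 1 library left out. For primed ref6-1 (37), they were 63 under quantile normalization, 19 with the compared groups alone, 12 with the root covariate, 22 without overlapping members, and 9 to 23. For the ref6-1 difference between histories (131), they were 36 with the mitochondrial and 0 with the root covariate, 80 without overlapping members, and 88 to 124. For the naive difference between mutants (15), they were 23 with TPM rescaled over protein-coding genes, 1 with the mitochondrial and 5 with the root covariate, and 3 to 15. For the primed difference (28), they were 14 with the compared groups alone and without overlapping members, 18 among protein-coding genes, 2 with the root covariate, and 14 to 29. A group left with 1 library is assumed to vary like the others. Counts without overlapping members are of 111, not 199, and the shares were 58.6% against 53.8% in naive ref6-1, 19.8% against 18.6% in primed ref6-1, 72.1% against 65.8% for its difference between histories, 12.6% against 14.1% for the primed difference between mutants and 2.70% against 5.53% in naive pif7-1. The cause was not tested, except that the compared groups alone and a left-out library leave fewer samples, and the non-overlapping members are fewer genes. Medians near 0 in pif7-1 turned sign. The primed median of 0.03 was -0.0207 with the root covariate and ran between -0.0338 (without replicate 2 of primed shade) and 0.225 with 1 library left out. The difference between histories of -0.05 was 0.0272 without replicate 1 of naive white light and ran between -0.214 and 0.0632 (without replicate 1 of primed shade). The other 116 counts stayed within 1.5 times. With the replicate number as a block, 14 members rose in naive pif7-1, 110 in naive ref6-1, and 36 fell in primed ref6-1. Deviations of same-numbered libraries correlated at -0.03 to 0.13, so the numbers were not treated as pairs.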
